A study of Mus musculus with 12 samples.

Results

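The genes described here were the 70 of 19938 measured mouse genes whose symbol names a heat shock protein (Hspa, Hspb, Hsp90, Hspd1, Hspe1 or Hsph1) or a J-domain protein of the DnaJ classes A, B and C. Genes entered by their symbol, with no threshold on a measured value. The platform annotation gave 93 transcript clusters with 1 such symbol, and for the 8 genes with several clusters the brightest over all arrays was used. Another 10 clusters carried such a symbol together with others and were not used, among them the one that names Hspa1b. Neither Hspa1b nor Hsp90ab1 had a cluster of its own symbol, and both were not analysed here.

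RNA came from islets of 8 week old RIP1-Tag2 mice on a C57BL/6 background, a transgenic line in which the insulin promoter drives the SV40 T antigen in beta cells, so that both groups were tumour-prone tissue of the same genotype. Isolated islets were sorted by their appearance into angiogenic and non angiogenic ones and pooled. RNA was measured on 12 Affymetrix arrays, 6 per group. Each array is called a pool here, but the labels do not say how many separate pools there were. The number of mice or islets behind a pool is not given in the labels either. The spread that the tests use is that between arrays, which may be technical, and independent samples may be fewer than 6 per group. Values are log2 levels after RMA, which brings the probe intensities of all arrays to 1 distribution before they are summarised per cluster. Cluster values kept small offsets between arrays, with array medians between 7.30 and 7.38.

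Heat shock proteins are chaperones, which hold unfolded proteins and help them to fold. HSP70 proteins bind and release their clients in cycles driven by ATP, J-domain proteins deliver the clients and start the cycle, and HSP110 proteins reset it. Under heat or other protein damage the transcription factor HSF1 binds heat shock elements in a subset of these genes and raises their transcription, whereas chaperones of the endoplasmic reticulum, on which insulin-producing cells rely, answer to the unfolded protein response through a separate element.

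Of the 70 genes, 5 were lower in angiogenic islets and 0 were higher at an adjusted p under 0.05 (limma, 6 against 6 arrays). The 5 were Dnajb1, Hspe1, Dnajc28, Dnajb4 and Dnaja4, and their mean levels were 1.16-fold to 1.45-fold lower. Among all genes 0.948% were lower and 3.55% were higher by the same rule, against 7.14% and 0 of the chaperone genes. At an unadjusted p under 0.05, limma gave 11 chaperone genes lower and 0 higher, where 6.59% of all genes were lower and 7.76% higher. The methods' t-test gave 3 lower and 0 higher after adjustment (all genes 0.903% and 2.94%), and 10 lower and 0 higher without it (6.95% and 7.67%). The differences were small: their median was -0.04 over the 70 genes and -0.02 over all genes, and 50 of 70 were negative and 20 positive, against 59.9% and 40.1% of all genes.

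The sequences below are stretches before the start that hold a heat shock element pair, in genes that were lower or are classical heat shock genes. Hspd1, also a classical gene with pairs before its start, is not shown, and its element is that of Hspe1. They are shown because HSF1 acts on many heat shock genes through such elements. RefSeq windows of 300 bases around the annotated starts (build GRCm38.p6, 250 bases before to 50 after) were found for 57 of the 70 genes. The classical genes Hspa8 and Hsp90aa1 were among those without a window. Capitals mark the pair, searched on both strands as GAANNTTC or TTCNNGAA, and overlapping matches run together. All stretches are written on the strand of the gene, and none was measured in these islets.

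Hspe1, chr1:55088053-55088082, plus strand: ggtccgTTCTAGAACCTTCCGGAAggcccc
Dnajb4, chr3:152193846-152193875, minus strand: gttcgttcgttcgctgTTCTAGAAagtaca
Dnaja4, chr9:54699458-54699487, plus strand: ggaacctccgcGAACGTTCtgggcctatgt
Dnaja4, chr9:54699496-54699525, plus strand: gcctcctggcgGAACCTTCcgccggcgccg
Hsph1, chr5:149636351-149636380, minus strand: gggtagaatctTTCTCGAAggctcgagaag
Hspa1a, chr17:34972242-34972271, minus strand: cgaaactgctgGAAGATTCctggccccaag
Dnaja1, chr4:40722333-40722362, plus strand: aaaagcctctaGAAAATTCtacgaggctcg
Hspb1, chr5:135887801-135887830, plus strand: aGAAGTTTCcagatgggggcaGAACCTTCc

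In Hspe1 the matched bases lay at positions -89 to -72 from the start, and in Dnajb4 at -14 to -7. A pair was present in 15 of the 57 genes, or 26.3%, where 17.0% of 27025 genes with a window held one. Among the 5 lower genes, Dnaja4, Dnajb4 and Hspe1 held a pair, and the windows of Dnajb1 and Dnajc28 did not. The other genes with a pair were Dnaja1, Dnajb6, Dnajc10, Dnajc27, Dnajc5g, Hspa1a, Hspb1, Hspb3, Hspb6, Hspb8, Hspd1 and Hsph1. None of those passed by limma in either direction, and their differences ran from -0.34 (Hsph1) to 0.13 (Hspb6). The longer form, 3 units in alternating orientation, was found in Dnajb6, Hspd1, Hspe1 and Hsph1, or 7.02% of the 57, against 0.662% of all genes with a window. In Hsph1 it lay after the start, outside the stretch shown. The windows of Hspe1 and Hspd1 overlap, because these genes are transcribed in opposite directions from a shared region, and hold the same element. A match describes letters in a window, and windows without one say nothing about the factor.

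Dnajb1, whose protein is the main heat-inducible J-domain partner of HSP70 in the cytosol, was lower by the most. Its log2 level in non angiogenic islets was 11.21 at the lowest, 11.41 at the median and 11.46 at the highest. In angiogenic islets it was 10.60, 10.91 and 10.97. All 6 angiogenic pools therefore lay below all 6 non angiogenic ones. Dnajb1 fell by 0.54 (SE 0.07, adjusted p = 3.94e-04, limma), or 1.45-fold. The 150 bases before its first annotated start, shown because this gene held no pair in the window, are, with single GAA units in capitals:

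Dnajb1, chr8:83608025-83608174, plus strand: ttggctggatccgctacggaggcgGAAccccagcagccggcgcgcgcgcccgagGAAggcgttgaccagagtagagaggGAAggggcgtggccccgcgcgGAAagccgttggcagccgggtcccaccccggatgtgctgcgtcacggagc

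Dnajb4, another cytosolic class B partner of HSP70, lay between 10.54 and 10.87 with a median of 10.75 in non angiogenic islets. In angiogenic islets it lay between 10.25 and 10.52 with a median of 10.43. The groups did not overlap, although the nearest pools were close to each other. Dnajb4 fell by 0.31 (SE 0.07, adjusted p = 0.0117, limma), or 1.24-fold. The other 11 genes of class B did not pass, and the median over all 13 was -0.07.

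Class A proteins have the same domain order as the bacterial DnaJ. Dnaja4 lay between 10.50 and 10.63 with a median of 10.55 in non angiogenic islets, and between 10.20 and 10.45 with a median of 10.36 in angiogenic islets. The groups did not overlap, and Dnaja4 fell by 0.22 (SE 0.06, adjusted p = 0.0436, limma). Its call was lost without any 1 of the non angiogenic pools or of angiogenic replicates 4 to 6, with an adjusted p of up to 0.112. Dnaja1, a heat-inducible member of the class, ranged from 11.28 to 11.67 with a median of 11.61 in non angiogenic islets and from 11.14 to 11.39 with a median of 11.31 in angiogenic islets. Non angiogenic replicate 3 lay among the angiogenic pools and replicate 6 just below the highest of them, and the difference of -0.25 (SE 0.08) did not pass (adjusted p = 0.0815, limma). Without non angiogenic replicate 3 it passed (adjusted p = 0.0200). Its dimmer cluster differed by -0.42, and with the mean of its clusters Dnaja1 passed (adjusted p = 0.0069). Dnaja2 and Dnaja3, the mitochondrial member of the class, differed by 0.05 and -0.04.

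Dnajc28, a class C member whose role is poorly known, ranged from 6.99 to 7.27 with a median of 7.20 in non angiogenic islets. In angiogenic islets it ranged from 6.65 to 6.94 with a median of 6.85. The groups did not overlap, and both lay below the median of the arrays, where RMA compresses differences. Dnajc28 fell by 0.32 (SE 0.06, adjusted p = 0.0079, limma), or 1.25-fold. Class C proteins share little beyond the J domain and serve many compartments, and the other 27 genes of the class did not pass. Next in size were Dnajc24, which acts in the diphthamide pathway (-0.20, SE 0.09, adjusted p = 0.317), and Dnajc13, which acts on endosomes (-0.19, SE 0.09, adjusted p = 0.372). The 15 clusters of Dnajc13 ranged from -0.23 to 0.08.

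**Figure D1:**
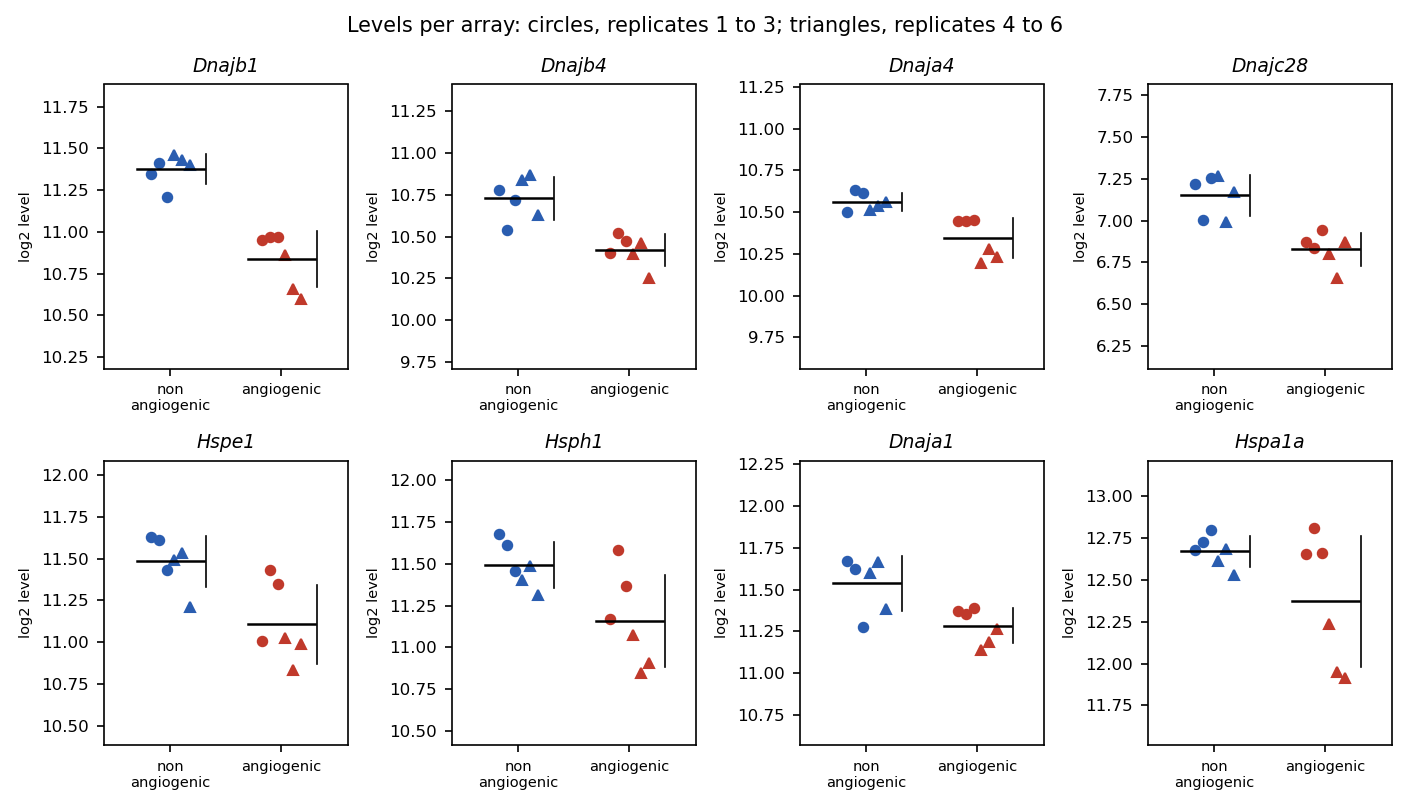
Log2 level (y axis, same span in every panel) of 8 chaperone genes in each of 6 non angiogenic (blue) and 6 angiogenic (red) pools, with replicates 1 to 3 as circles and replicates 4 to 6 as triangles. Horizontal lines are means and vertical lines their SD, and the groups do not overlap in Dnajb1, Dnajb4, Dnaja4 and Dnajc28.

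The groups did not overlap in 4 chaperone genes, Dnajb1, Dnajb4, Dnaja4 and Dnajc28, all lower in angiogenic islets, and in 0.923% of all genes in that direction. No chaperone gene had all angiogenic pools above all non angiogenic ones, which held for 2.85% of all genes.

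The mitochondrial chaperonin is a barrel of HSP60, made from Hspd1, closed by a lid of HSP10, made from Hspe1. Hspe1 ranged from 11.21 to 11.63 with a median of 11.51 in non angiogenic islets and from 10.83 to 11.44 with a median of 11.02 in angiogenic islets. Angiogenic replicates 2 and 3 lay among the non angiogenic pools, and non angiogenic replicates 3 and 6 lay below the highest angiogenic one. Hspe1 fell by 0.38 (SE 0.10, adjusted p = 0.0496, limma), or 1.30-fold, and its other cluster differed by -0.36. The call, at the edge of the threshold, held when angiogenic replicate 2, angiogenic replicate 3 or non angiogenic replicate 6 was left out. It was lost when any other pool was left out, with an adjusted p of up to 0.118. It was also lost with the mean of its clusters (0.0547) and after median centring (0.0527). Array weights, quantile normalization, the methods' t-test with adjustment, replicates 1 to 3 alone and the acinar covariate lost it as well.

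Hspd1 had a mean difference of -0.02 (95% interval -0.26 to 0.21), although it shares its promoter region with Hspe1. In replicates 1 to 3 its angiogenic pools were all above the non angiogenic ones (10.91 to 11.19 against 10.75 to 10.90), and in replicates 4 to 6 they were all below them (11.02 to 11.15 against 11.18 to 11.43). Its dimmer cluster differed by 0.12 (SE 0.25). Hspa9, the HSP70 of mitochondria, differed by -0.07 (95% interval -0.20 to 0.05). Of the 7 mitochondrial chaperones, Hspe1 was lower and the other 6 did not pass.

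In the cytosol, HSP70 and HSP110 were represented by 8 genes, of which 0 passed in either direction by limma and 7 had negative differences. Over all genes 59.9% of differences were negative. Hsph1, the inducible HSP110, ranged from 11.32 to 11.68 with a median of 11.47 in non angiogenic islets and from 10.85 to 11.58 with a median of 11.12 in angiogenic islets. Angiogenic replicates 2 and 3 overlapped the other group, and the difference of -0.34 (SE 0.11) did not pass (adjusted p = 0.129, limma). Without angiogenic replicate 2 it passed (adjusted p = 0.0219).

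Hspa1a, the inducible HSP70, ranged from 12.53 to 12.80 with a median of 12.68 in non angiogenic islets. In angiogenic islets it ranged from 11.91 to 12.81 with a median of 12.45. Angiogenic replicates 1 and 3 lay among the non angiogenic pools, replicate 2 was just above the highest of them, and replicates 4 to 6 were below all of them. The difference of -0.30 (SE 0.14) did not pass (adjusted p = 0.353, limma). Hspa1a and Hspa1b are nearly identical in sequence, so probes for 1 can read the other.

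By contrast Hspa8, the constitutive HSP70, differed by -0.04 (95% interval -0.14 to 0.06). Its levels ran from 13.08 to 13.31 in non angiogenic and from 13.09 to 13.22 in angiogenic islets, and the groups overlapped fully. Hsp90aa1, the inducible cytosolic HSP90, differed by -0.09 (95% interval -0.21 to 0.04). The 3 atypical HSP70 genes, Hspa12a, Hspa12b and Hspa13, differed by -0.04 to 0.07 and 0 passed by limma. The intervals of Hspa8 and Hsp90aa1 exclude falls of the size measured for Dnajb1.

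The brightest chaperones of the endoplasmic reticulum, Hspa5 and Hsp90b1, differed little between the groups. Hspa5, which encodes BiP, the HSP70 of this compartment, lay between 13.22 and 13.48 in non angiogenic and between 13.28 and 13.42 in angiogenic islets and differed by -0.02 (95% interval -0.13 to 0.10). Hsp90b1, which encodes GRP94, differed by -0.03 (95% interval -0.13 to 0.08). Of 10 genes of this compartment, among them the J-domain genes Dnajb9, Dnajb11, Dnajc3 and Dnajc10, 0 passed by limma, and their differences ran from -0.15 to 0.07. The 95% intervals were wider for Dnajb9 (-0.33 to 0.03) and Hspa13 (-0.28 to 0.38). Falls of the size measured for Dnaja4 (-0.22) are not excluded in those genes.

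The ER stress element, CCAAT and CCACG separated by 9 bases, was found in the windows of Hspa5, Hsp90b1 and Dnajc3, or 5.26% of the 57 genes, against 0.137% of all genes with a window. The stretches are shown because the unfolded protein response acts through this element. Hspa5, Hsp90b1 and Dnajc3 did not pass, and of the genes shown above Hsph1, Hspa1a, Dnaja1 and Hspb1 did not either. Whether either element is linked to the differences was not tested. Capitals mark the element with its spacer, and the second stretch of Hsp90b1 holds it on the opposite strand.

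Hspa5, chr2:34772020-34772049, plus strand: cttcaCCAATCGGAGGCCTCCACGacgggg
Hsp90b1, chr10:86705632-86705661, minus strand: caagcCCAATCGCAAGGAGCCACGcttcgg
Hsp90b1, chr10:86705527-86705556, minus strand: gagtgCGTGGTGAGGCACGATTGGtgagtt
Dnajc3, chr14:118937822-118937851, plus strand: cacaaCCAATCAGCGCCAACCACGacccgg

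Small heat shock proteins bind unfolding proteins without ATP, and several of them are abundant in muscle. Of 8 genes 0 passed by limma, 4 differences were negative and 4 positive. Hspb6, found in smooth and striated muscle, had the largest positive difference of the 70 genes (0.13, SE 0.07, adjusted p = 0.486). Hspb7, of heart and skeletal muscle, differed by 0.11 (adjusted p = 0.544). Hspb1, which encodes HSP27, had the widest interval of the 70 genes (0.08, 95% interval -0.36 to 0.53). Its angiogenic levels ran from 9.21 to 10.67, with replicate 2 the highest and replicates 5 and 6 the lowest of all pools.

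The other genes with larger positive differences were Dnajc22 (0.10), Dnajc11 of mitochondria (0.08), Hspa12b, an HSP70 relative of the endothelium (0.07), Dnajc18 (0.07), Dnajc10 and Dnajb11 of the endoplasmic reticulum (both 0.07) and Dnajb6 (0.07). Their adjusted p-values lay between 0.526 and 0.877 (limma). None of these differences passed the test.

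**Figure D2:**
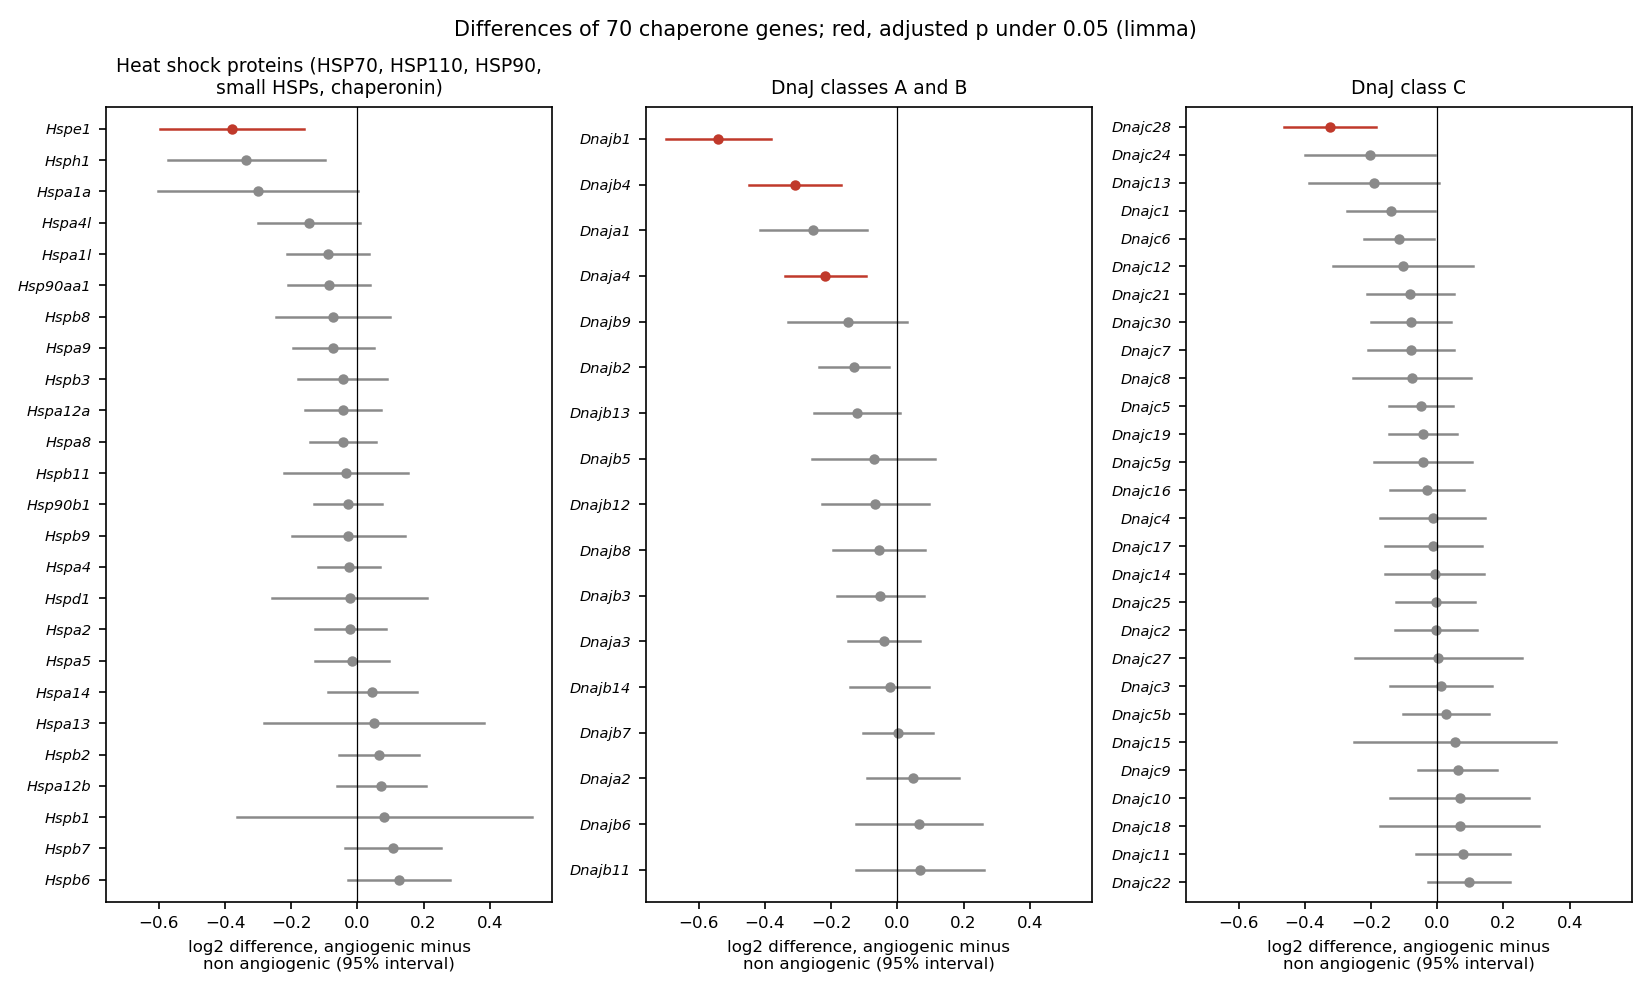
Log2 difference (x axis, angiogenic minus non angiogenic) with its 95% interval for each of the 70 genes in 3 panels by family, sorted by size. Red marks the 5 genes with an adjusted p under 0.05, all to the left of 0.

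**Figure D3:**
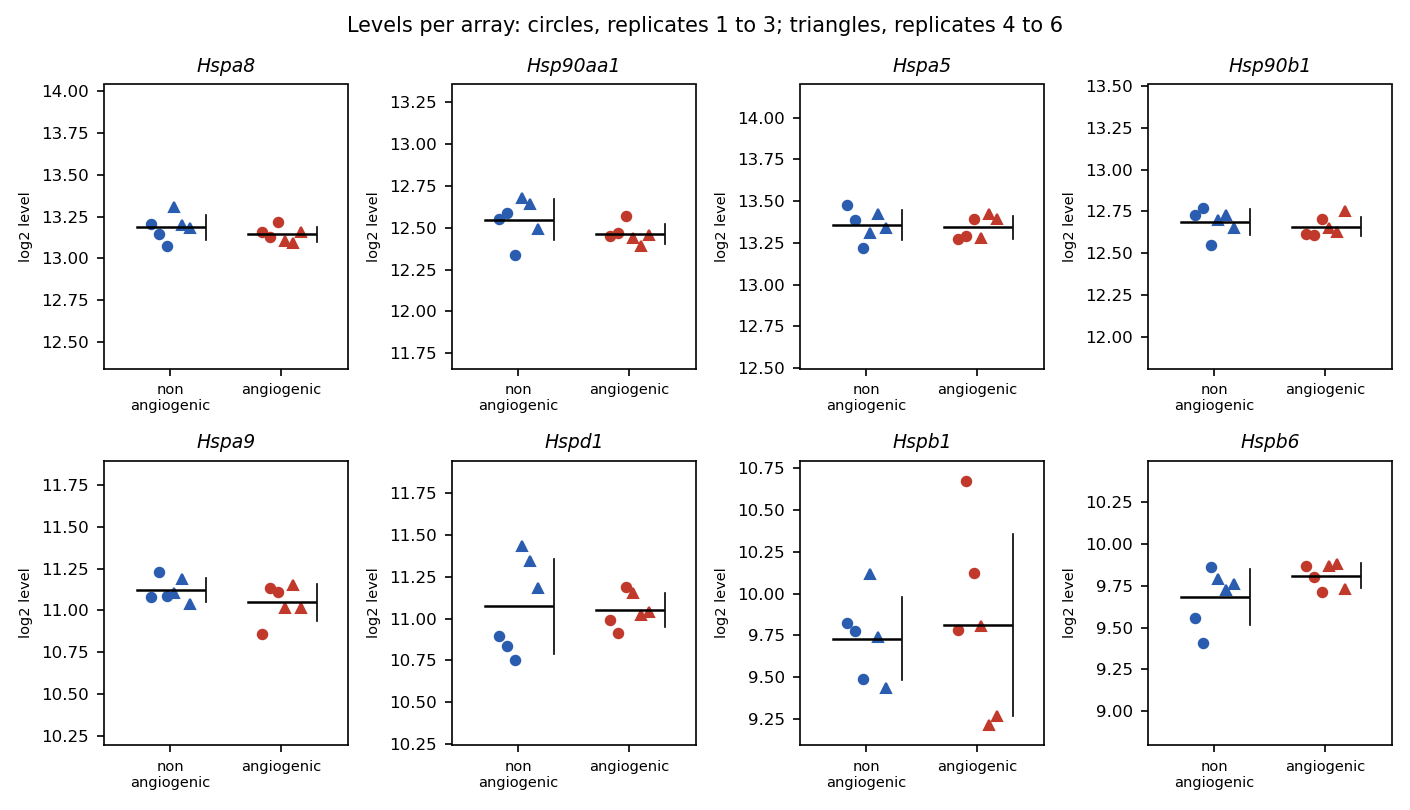
Log2 level (y axis, same span in every panel) of 8 chaperone genes that did not pass, in each of 6 non angiogenic (blue) and 6 angiogenic (red) pools, with replicates 1 to 3 as circles and replicates 4 to 6 as triangles. Horizontal lines are means and vertical lines their SD, and the groups overlap in every panel, with Hspb1 the most spread.

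The arrays of replicates 1 to 3 and of replicates 4 to 6 stood apart in both groups. The study describes independent profiling experiments, but neither its text nor the labels tie arrays to them. Each difference was therefore also read within these sets. In replicates 1 to 3 alone, 1 chaperone gene was lower at an adjusted p under 0.05 (limma) and 0 were higher, against 0.331% and 2.37% of all genes. That gene was Dnajb1. In replicates 4 to 6 alone, 8 were lower and 0 higher, against 0.737% and 3.11%, namely the 5 above with Hsph1, Hspa1a and Dnaja1. With these sets taken as a block, 9 were lower and 0 higher, against 2.74% and 5.88% of all genes, and Hsph1 (adjusted p = 0.0095), Dnajc24 (0.0269), Dnajc13 (0.0347) and Dnaja1 (0.0370) joined the 5.

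The difference of Dnajb1 was -0.36 among replicates 1 to 3 and -0.72 among replicates 4 to 6. A difference of the same sign in both sets was found for 30 lower and 11 higher chaperone genes, against 36.9% and 23.8% of all genes. Hspe1 differed by -0.29 and -0.47, Hsph1 by -0.21 and -0.46, and Dnajb4 by -0.21 and -0.41. Dnajc28 was closer to even, at -0.28 and -0.37. The angiogenic pools of replicates 4 to 6 had the lowest levels of Dnajb1, Dnaja4 and Hspa1a among the 12 arrays.

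The difference of Hspa1a was -0.03 in the earlier and -0.58 in the later replicates (adjusted p = 0.884 and 0.0093, limma within each). In the later replicates its angiogenic pools, at 11.91 to 12.24, lay well below the non angiogenic ones, at 12.53 to 12.69. Hspb1 differed by 0.50 and -0.33, neither past the test. Dnajc24 and Dnajc13 ran the other way, with -0.32 and -0.29 in replicates 1 to 3 and -0.09 and -0.10 in replicates 4 to 6.

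A test of the difference between these within-set values, over all genes, called 0 of the 70 chaperone genes and 1 gene in all after adjustment (limma). At an unadjusted p under 0.05 it gave 6 chaperone genes. In 4 the angiogenic difference was more negative in replicates 4 to 6, namely Hspa1a (-0.55), Hspd1 (-0.45), Dnajb1 (-0.36) and Hspb1 (-0.83). In Dnajc24 (0.22) and Dnajc3 (0.27) it was less so or reversed in sign. The shares of all genes were 2.82% and 3.59%.

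**Figure D4:**
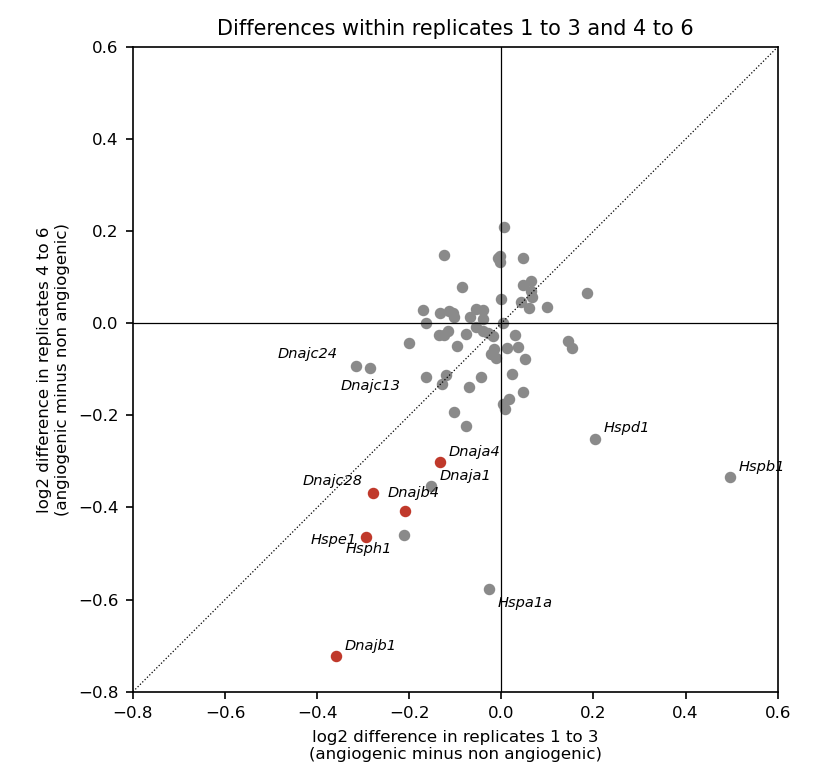
Log2 difference (angiogenic minus non angiogenic) of each of the 70 genes in replicates 1 to 3 (x axis) and in replicates 4 to 6 (y axis), with the dotted line where both are equal. Red marks the 5 genes past the test over all pools, and Dnajb1, Hspa1a, Hspb1 and Hspd1 lie below the line, the last pair with opposite signs.

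In 11 chaperone genes replicates 4 to 6 lay above replicates 1 to 3 without overlap within each group, and in 4 they lay below. Of all genes 11.4% and 7.79% did so. Higher in replicates 4 to 6 by the most were Hspa13, a microsomal HSP70 relative (0.54), Dnajc15 of mitochondria (0.48), Dnajc18 (0.37), Dnajc27 (0.37) and Dnajc12 (0.31). Hspa1a (-0.40), Hspb1 (-0.35) and Hsph1 (-0.31) were lower in replicates 4 to 6 by the most. These are differences over both groups, and in the last 3 genes the sets overlapped in at least 1 group. The value of Hspa1a was -0.67 in angiogenic and -0.12 in non angiogenic pools, that of Hspb1 -0.76 and 0.07, and that of Hsph1 -0.43 and -0.18.

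The list for the classical heat shock response held 10 genes, of which 9 were measured. These were Hspa1a, Hsph1, Hsp90aa1, Hspb1, Hspd1, Hspe1, Dnaja1, Dnajb1 and the constitutive Hspa8. By limma 2 were lower (Dnajb1 and Hspe1) and 0 higher, against 0.948% and 3.55% of all genes. Of the 9 differences 8 were negative, against 59.9% over all genes. The median difference was -0.25, against -0.02 over all genes. Within replicates 1 to 3 it was -0.03, the same as over all genes (-0.03). Within replicates 4 to 6 it was -0.35, against -0.007 over all genes. The mean level of the 9 genes ran from 11.50 to 11.70 in angiogenic and from 11.54 to 11.72 in non angiogenic pools of replicates 1 to 3, which overlapped. In replicates 4 to 6 it ran from 11.24 to 11.43 and from 11.57 to 11.79, which did not.

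The genes that encode heat shock factors and their binding protein, 5 measured, had 0 past the test by limma, with differences from -0.10 to -0.03, and Hsf1 was not analysed here. Of 24 co-chaperones of HSP70 and HSP90 0 passed, with a median of -0.01. The largest was Chordc1, a zinc-binding HSP90 partner (-0.28, SE 0.13, adjusted p = 0.375), followed by Ahsa2, an activator of the HSP90 ATPase (-0.20, adjusted p = 0.258), and Bag3, an HSP70 exchange factor that HSF1 also induces (-0.16, adjusted p = 0.622).

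Of 24 genes of the unfolded protein response 0 passed by limma and the median was -0.00. Sdf2l1, a cofactor of BiP, differed by 0.23 (adjusted p = 0.309), and Ern1, which encodes the stress sensor IRE1, by -0.21 (adjusted p = 0.0989). Of 14 genes of the cytosolic chaperonin and prefoldin 0 passed, with a median of 0.04. Of 11 genes of mitochondrial protein quality control 0 passed and the median was -0.07. Of their differences 10 were negative, against 59.9% over all genes. Pam16 and Grpel2, both of the import motor, differed by -0.20 each (adjusted p = 0.105 and 0.152). With the sets as a block, 1 of the 24 genes was lower, Ern1 (adjusted p = 0.0146). Of the 11 genes 2 were lower, Pam16 (0.0292) and Grpel2 (0.0311). By that fit 2.74% of all genes were lower.

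The pools differed in cell makeup between the groups. Markers of endothelium were higher in angiogenic islets for 11 of 12 genes (per-array means 9.34 to 9.51 against 8.86 to 9.03), of pericytes and smooth muscle for 9 of 10 (8.64 to 9.05 against 7.97 to 8.16), of fibroblasts for 9 of 10 (9.23 to 9.54 against 8.14 to 8.54) and of macrophages for 7 of 9 (8.50 to 8.94 against 8.05 to 8.38). Beta cell markers were bright in every pool, with Ins2 at 13.21 and 13.22 on average, and their means lay between 11.71 and 11.87 in angiogenic and between 11.76 and 12.03 in non angiogenic pools, with 1 of 9 lower (Ucn3, -0.25, adjusted p = 0.0285, limma). With the sets as a block 3 of 9 were lower, Ucn3 (adjusted p = 0.0037), Nkx6-1 (0.0179) and Slc2a2 (0.0407), where 2.74% of all genes were lower. In replicates 4 to 6 the beta cell means did not overlap (11.81 to 11.87 in angiogenic against 11.88 to 12.03 in non angiogenic pools), and in replicates 1 to 3 they overlapped slightly (11.71 to 11.77 against 11.76 to 11.87). In such bulk RNA, fewer cells of a type and less RNA per cell cannot be told apart, and the part of these markers in the falls of Dnajb1, Hspe1, Dnajc28, Dnajb4 and Dnaja4 was not tested.

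Acinar markers, from exocrine tissue left on the islets, varied widely in both groups (7.75 to 10.52 in angiogenic and 7.62 to 11.44 in non angiogenic pools) and 0 of 12 passed by limma. With their mean as a covariate Dnajb1, Dnajb4 and Dnajc28 were lower, and Dnaja4 (adjusted p = 0.0517) and Hspe1 (0.0592) did not pass. By that fit 225 of 19938 genes were lower. Immediate early genes, which respond to handling of tissue, had 1 of 14 higher (Egr2, 0.30, adjusted p = 0.0461, and with the sets as a block also Ier3, 0.20, adjusted p = 0.0410) and 0 lower, with per-array means of 10.88 to 11.04 in angiogenic and 10.84 to 11.21 in non angiogenic pools. Their part in the chaperone differences was not tested.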

How the data were processed

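Total RNA of pooled RIP1-Tag2 islets was hybridised to 12 Affymetrix mouse gene arrays, 6 angiogenic and 6 non angiogenic. The authors deposited log2 levels per transcript cluster. By the submitters' processing notes these come from RMA and Affymetrix Expression Console (versions not given in the sources used here). RMA hides overall changes in RNA content. The number of arrays limits the precision.

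Values were used as deposited. Of 35556 clusters, the 21789 that carry a single gene symbol were used, with the brightest per gene, giving 19938 genes. All 70 chaperone genes matched the RefSeq gene table by identifier. Groups were compared with limma 3.58.1 (lmFit and eBayes, R 4.3.3), two-sided, adjusted over all genes by Benjamini-Hochberg, at a threshold of 0.05. The fit was tested on simulated data. Promoter windows are those of RefSeq (GRCm38.p6). No protein sequences were used.

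The gene family and the gene lists were chosen with earlier results of these data known, and members then entered by symbol. Genes are named if they passed, are among the 10 largest differences of either sign, the 5 brightest or the classical heat shock genes, are Hspa5, Hsp90b1 or Hspa9, or had 1 of the 5 largest differences of either sign between replicates 4 to 6 and 1 to 3, and, in each list of other genes, for the 3 largest differences. Others (Dnaja2, Dnaja3, Dnajb9, Dnajc3, Hspa12a, Ins2, Ier3 and genes named for a promoter match) were named after their values were seen. Replicate numbers were not taken as pairs, because same-numbered arrays did not all deviate together (correlations 0.0276 to 0.538).

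Alternatives were the methods' t-test, an intensity trend, averaging a gene's clusters, quantile normalization, median centring, array weights, a filter on dim genes, the replicate or set as a block, each set alone, an acinar covariate and leaving out each array.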

Additional observations from a re-analysis of the deposited data

Results flagged for a closer look

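Hspd1, which encodes HSP60, was singled out because its groups separated in opposite directions in the 2 sets of arrays. The angiogenic difference in replicates 4 to 6 minus that in replicates 1 to 3 was -0.454 on the log2 scale (limma, unadjusted p = 0.0018, adjusted p = 0.71), so the difference between the sets did not pass over all genes. No single pool of the 30 named chaperone genes stood apart from its group by Dixon's test, in 60 groups of 6.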

How the results depend on the processing

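No chaperone gene was higher in any of the 13 alternatives or the 12 fits that left out 1 array. The count of lower ones, 5, was 3 by the methods' t-test with adjustment and 10 without, 3 after quantile normalization, 3 with the acinar covariate, 9 with the sets as a block, 1 in replicates 1 to 3 alone, 8 in replicates 4 to 6 alone, and 3 to 6 when 1 array was left out. With the replicate number as a block it was 6, adding Hsph1, and not every array correlated best with its own number. Dnajb1 was lower in all 25 fits, Dnajb4 and Dnajc28 in all but replicates 1 to 3 alone. Dnaja4 and Hspe1 were near the threshold in the main fit (adjusted p = 0.0436 and 0.0496, limma). Each lost its call in 9 of 12 fits without 1 array. In those 12 fits their differences ran from -0.24 to -0.19 and from -0.44 to -0.32. Among the 13 other alternatives, Dnaja4 lost its call in 4 and Hspe1 in 7.

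Among all genes, 708 higher became 1529 by the unadjusted t-test, 1172 with the set block, and 553 to 715 without 1 array. The 189 lower became 1385 by the unadjusted t-test, 449 with the replicate block, 547 with the set block, 66 in replicates 1 to 3 alone and 110 to 178 without 1 array, the lowest without angiogenic replicate 6. The cause of that low count was not tested. After quantile normalization 171 of all genes were lower, and with the acinar covariate 225. Of 748 fits of 30 named genes, 704 kept their side of the threshold, 31 lost and 13 gained a call, and 0 called values changed sign. Leaving out dim genes kept 60 of the 70 genes. The test of the difference between sets called 0 chaperone genes under a trend, median centring and quantile normalization, chosen after seeing the data.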
